A study of Ovis aries with 4 samples.

Results

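The young ovary list held 4378 m6A peaks, which lay in 3846 genes, of 8034 peaks in the 2 peak lists of the series. Every row of that list was used, and it is described here by itself. The series concerned ovarian tissue of Cele black sheep at 2 ages, with an immunoprecipitated library and an input library at each. The animals of the young list were 1 to 2 years old, 1 library was made with an antibody against m6A and 1 without antibody as input, and both were labelled replicate 1. No genotype or treatment was given in the labels, and the sources used here do not say whether the tissue came from 1 animal or several. With 1 list there was no replicate check on any value, and no test was made. Intervals in brackets are 95% intervals that cover counting error only (Wilson intervals for shares, binomial order statistics for medians), and peaks are not replicates of a condition.

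N6-methyladenosine (m6A) is a methyl group on internal adenosines of messenger RNA. Writer complexes around METTL3 and METTL14 place it, ALKBH5 and FTO remove it, and reader proteins such as those of the YTH family bind it and change splicing, export, translation or decay. In many mammalian tissues the mark is found most densely around stop codons and in 3' untranslated regions (UTRs), and in the ovary it is known for its part in oocyte maturation and follicle growth.

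A peak is a stretch of transcript that was enriched in the immunoprecipitate over the input. Its fold enrichment, p-value, adjusted p-value and annotation label are the authors' own values and were used to describe, rank and filter peaks within the list. The folds ran from 1.5 to 7.67, with quartiles of 1.76, 2.05 and 2.5, so most peaks were close to the lower end. A fold of at least 2 was reached by 2553 peaks (58.3%), and a fold of at least 3, called strong here, by 559 (12.8%). Strong peaks lay in 546 genes, 14.2% of all genes with a peak, and 105 genes (2.73%) reached a fold of at least 4. The log10 p ran from -1.33 to -207 with a median of -15.3, and 10 peaks had an adjusted p above 0.05, the largest being 0.432. Sequencing depth and transcript abundance were not available in the list, so a gene without a peak cannot be told from a gene without enough reads.

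Of all genes, 25 had a fold of at least 5. RHOBTB2, an atypical GTPase that serves cullin ubiquitin ligases, led with a fold of 7.67 in a 3' UTR peak on chromosome 2 (42635647 to 42635796, minus strand). The histone chaperone gene ANP32B followed at 6.67, in an exon peak on chromosome 2 that ran from 49696877 to 49702015 across introns and covered 299 bases of exon. Genome coordinates are those of the deposited list, counted from 1, with a build not given in the sources used here. AGBL5, whose product trims glutamates from tubulin, reached 6.60 and the dynein light chain gene DYNLL2 6.50. The Wnt receptor gene FZD4 stood at 6.37 in a 3' UTR peak on chromosome 21 (8153826 to 8153976), and STEEP1, which helps the DNA-sensing adaptor STING leave the endoplasmic reticulum, at 6.33. The acetyl-histone reader gene BRD3 had a fold of 6.25. CEBPB, a transcription factor that granulosa cells need to luteinise in mice, and MYCT1, a MYC target gene, both had 6.00.

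The remaining genes of the 25 had folds between 5.00 and 5.89. ABCA1, which exports cholesterol from cells, had a fold of 5.33 and the lowest p among the 25 (log10 p -42.4). PTGIS, the prostacyclin synthase gene, had 5.29. Genes of motors and the actin cortex were WASF3 (5.25), the axonemal dynein gene DNAH3 (5.20), radixin (RDX, 5.00) and the myosin gene MYH15 (5.00). The deubiquitinase gene USP34 had 5.75, LRRC2 5.89 and ARHGEF37 5.20. A tie of 9 genes closed the group at 5.00. It held RRS1, which acts in ribosome assembly, the prolyl isomerase gene PIN4, the Golgi mannosidase gene MAN2A1, the nucleotide kinase gene CMPK2, HDGFL3, RDX, MYH15, and 2 entries of less certain identity. These were LOC101109426, deposited with the symbol STRBP, and TPD52, deposited with the symbol MRPS28, which names another gene. Across the list, 83 genes had a deposited symbol that differed from the gene name by more than letter case.

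Fold and p-value were only weakly related in this list. Of the 25 genes, 13 had their strongest peak under the stop codon label, 8 under 3' UTR and 4 under exon, 16 were on the plus strand and 21 had no other peak. Over all genes with a peak, those shares were 42.7%, 46.1%, 9.28%, 53.6% and 87.9%. The log10 p of the 25 genes ran from -42.4 (ABCA1) to -4.13 (MYH15, adjusted p 0.00115), and 11 of them had a p weaker than the median peak. BRD3 had a log10 p of only -5.39 for its exon peak of fold 6.25, while its 3' UTR peak had a lower fold of 3.09 and a log10 p of -11.3. The 10 genes with the lowest p had folds between 1.57 and 2.60, 5 of them below the median fold, and none was among the 20 leading genes by fold. A median splits all peaks evenly, so 11 of 25 and 5 of 10 are near the share over all peaks. Lists of 10 and 20 genes out of 3846 would seldom share a gene, so the lack of overlap shows no opposition of fold and p. POLR2F, a subunit shared by the nuclear RNA polymerases, had the lowest p (log10 p -207, fold 2.60) in an exon peak on chromosome 3 from 215577214 to 215580619. RPS27L, a ribosomal protein paralogue, followed with -102 (2.48). Then came SAP30L, a gene of a histone deacetylase complex, with -93.3 (1.69) and the mitochondrial ribosome gene MRPS16 with -84.0 (1.57). The sperm surface gene SPA17 and EVA1B had -75.2 each, RP9 -72.6, SH3GLB1 -72.0, the retinol saturase gene RETSAT -71.3 and the helicase gene DHX32 -69.8. Over all 4378 peaks, the Spearman rank correlation between fold and log10 p was 0.118, a value across peaks that share the same pair of libraries. The fold is a ratio and the p reflects read support too, and the read counts behind the peaks were not available.

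**Figure D1:**
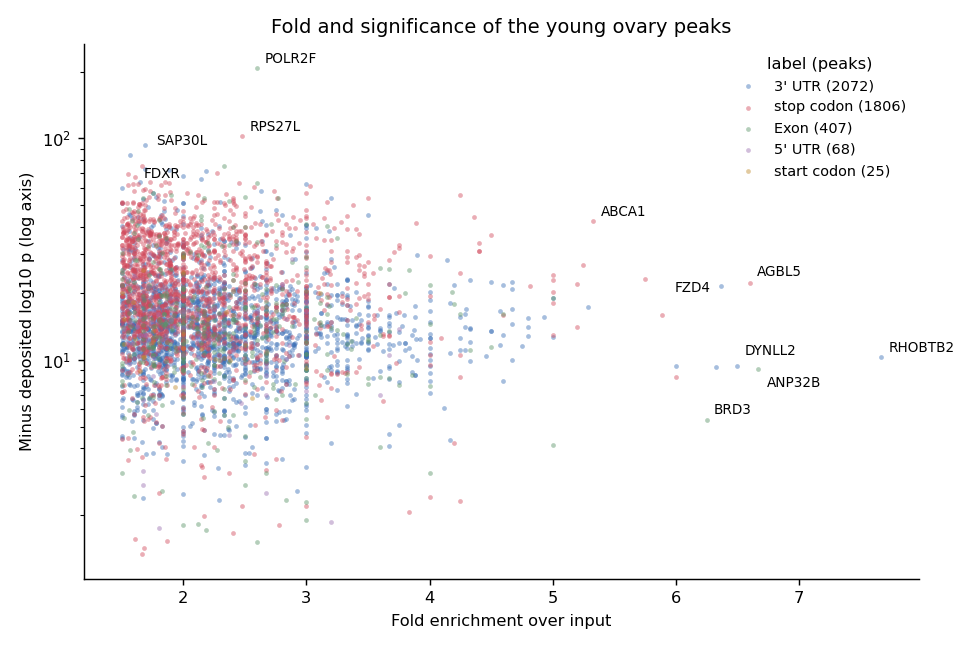
Fold enrichment over input (x axis) against minus the deposited log10 p (y axis, log axis) for each of the 4378 young ovary peaks, coloured by annotation label. The genes with the highest folds, such as RHOBTB2 (7.67), and those with the lowest p, such as POLR2F (log10 p -207), lie in different parts of the plot, and ABCA1 is the leading gene by fold with the lowest p.

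The annotation labels split the peaks into a 3' UTR class of higher fold and a stop codon class of lower p. Peaks labelled 3' UTR (2072) had a median fold of 2.12 (2.10 to 2.17), and those labelled stop codon (1806) one of 2.00 (1.95 to 2.00). A fold of at least 3 was reached by 302 of the 3' UTR peaks, 14.6% (13.1 to 16.2), and by 181 of the stop codon peaks, 10% (8.72 to 11.5), around the 12.8% of all peaks. The median log10 p went the other way, with -13.5 (-13.8 to -13.3) for 3' UTR and -19.5 (-20.3 to -19.1) for stop codon. FZD4 and DYNLL2 are examples of the first class, and FDXR, which feeds electrons to the steroid-making cytochromes, of the second, with a stop codon peak of fold 1.59 and log10 p -62.5. With the peaks ordered by p and divided into 4 classes of like size, the stop codon share was 71.1% (68.4 to 73.7) in the class with the lowest p, 41.1% and 28.3% in the next, and 24.4% (21.9 to 27) in the class with the highest p. Ordered by fold, it was 52.0% in the lowest of 6 fold classes and 31.1% at 4 and above, while the 3' UTR share was 38.4% and 55.7%. The 25 genes with a fold of at least 5 went the other way, with 13 under stop codon and 8 under 3' UTR. The label is the deposited one and was not checked against gene models here. In the 466 genes with several peaks, the first was labelled 3' UTR in 322 and the last stop codon in 241. The labels thus often run against the order of stop codon and 3' UTR in a transcript.

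**Figure D2:**
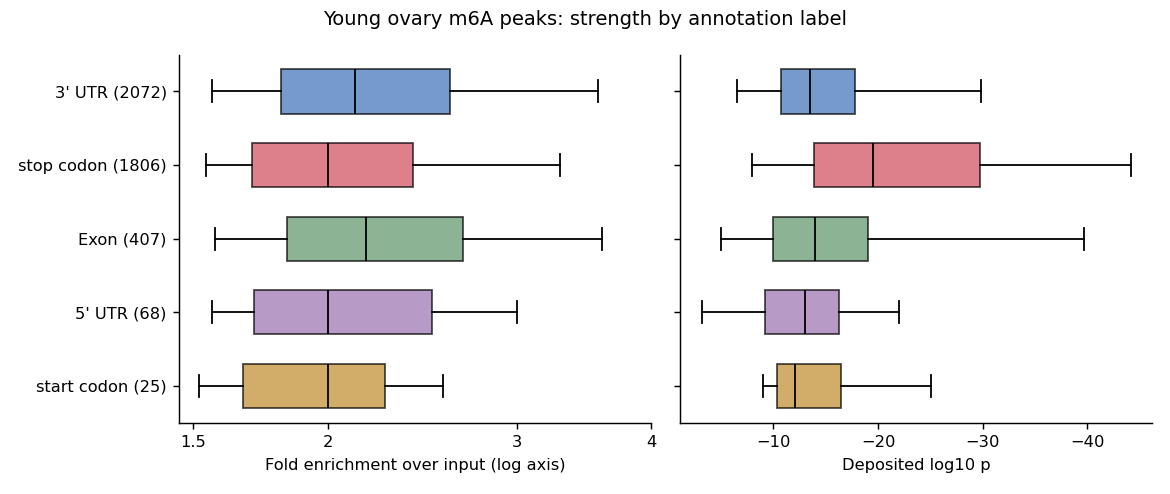
Fold enrichment (left, log axis) and deposited log10 p (right) by annotation label, with the number of peaks in brackets. Lines mark medians, boxes the quartiles and whiskers the 5th and 95th percentiles, and the stop codon class lies lower in fold (2.00 against 2.12) and further right in log10 p (-19.5 against -13.5) than the 3' UTR class.

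The same order of folds was seen inside genes, but the order of p-values was nearly even there. In 195 genes with both a stop codon and a 3' UTR peak, the 3' UTR peak had the higher fold in 116, the stop codon peak in 74, and both were equal in 5. The median folds were 2.22 (3' UTR) and 2.00 (stop codon). Where a gene had several peaks of a label, the highest fold and the lowest p were taken. Genes with several peaks held 584 3' UTR peaks in 395 genes and 262 stop codon peaks in 252. The 3' UTR value was thus more often the best of several, which favours that label in both comparisons. The stop codon peak had the lower p in 100 of the 195 genes (51.3%), with median log10 p of -14.3 against -13.0 for the 3' UTR peaks. INHBB, the gene of an activin and inhibin subunit, showed both orders at once: its 3' UTR peak had a fold of 3.33 and log10 p -9.22, and its stop codon peak 1.58 and -18.4. LRRC2 went against the majority, with 5.89 in its stop codon peak and 1.83 in its 3' UTR peak. In genes with a single peak the difference in p was wider, with medians of -21.2 for stop codon and -13.95 for 3' UTR.

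Exon peaks were fewer (407) but had folds much like those of 3' UTR peaks. Their median fold was 2.17 (2.12 to 2.27), and 67 of them, 16.5% (13.2 to 20.4), reached a fold of at least 3. After ANP32B, BRD3, RDX and MYH15 the leading exon peak was that of NMT1 (4.60), which attaches myristate to proteins. Most exon peaks (69.5%) joined exons across an intron, against 13.0% of stop codon and 8.98% of 3' UTR peaks, and over the whole list 739 peaks (16.9%) did so. The exon peak of RDX ran over 30212 bases on chromosome 15 to cover 250 bases of exon.

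Peaks labelled for the 5' end of transcripts were rare. There were 68 labelled 5' UTR, with a median fold of 2.00 (1.79 to 2.25), and 25 labelled start codon, also at 2.00 (1.67 to 2.20). Among 5' UTR peaks the highest folds were those of the natriuretic peptide receptor gene NPR3 (3.75), the isoprenoid synthesis gene IDI1 (3.67), TNRC18 (3.60), the T-box transcription factor gene TBX3 (3.20) and ARMC12 (3.00). The TBX3 peak was weakly supported, with a log10 p of -1.86 and an adjusted p of 0.0158. At start codons the calcineurin-responsive transcription factor gene NFATC4 led with 3.11, followed by CAGE1 (3.00), the radial spoke gene RSPH9 (2.56), the proteasome gene PSMD1 (2.5) and the bromodomain gene BRD9 (2.38). INHBA, which encodes the other activin beta subunit, had a start codon peak at 2.26 and an exon peak at 2.67. Of the 25 start codon peaks, 18 (72.0%) crossed an intron.

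The plus and the minus strand carried peaks of like strength. The plus strand held 2389 peaks, 54.6% (53.1 to 56.0), and 53.6% of the genes with a peak. Median folds were 2.06 on the plus and 2.03 on the minus strand, and median log10 p -15.3 and -15.2. The share of stop codon labels was 43.1% (41.1 to 45.1) on the plus and 39.0% (36.9 to 41.2) on the minus strand, and those peaks had median folds of 2.00 and 1.95. Strong exon peaks made up 20% (15 to 26.1) of the 200 exon peaks on the minus strand, where ANP32B, RDX and HSP90AA1 lie, and 13.0% (9.12 to 18.3) of the 207 on the plus strand, where BRD3 and NMT1 lie. The strand of the peak was the deposited strand of its gene in every row.

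Most genes had a single peak, and 466 genes had several (998 peaks). Peaks were counted per gene, so those of a gene may lie on different transcripts. There were 409 genes with 2 peaks, 49 with 3, 7 with 4 and 1 with 5. The peaks of these genes had a median fold of 2.12 (2.05 to 2.17), against 2.02 (2.00 to 2.07) for the single peaks, and a median log10 p of -13.05 against -16.4. The highest fold of a gene was 2.56 in the median for genes with several peaks and 2.02 for genes with 1, the former being the best of several values.

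TSHZ2, a zinc finger homeobox gene on chromosome 13, had the most peaks. Its 5'-most pair of peaks, both labelled 5' UTR, had folds of 2.33 and 1.57 (80594631 to 80594781 and 80594931 to 80595131). Far downstream in the genome came a 3' UTR peak (1.68), a peak labelled stop codon that crossed an intron (2.31, 80887567 to 81080191) and a last 3' UTR peak (2.12). The other genes with many peaks carried them mainly under 3' UTR or stop codon labels. ZNF462, a zinc finger gene, had 3' UTR peaks of 3.00, 1.58, 1.76 and 2.00 from 5' to 3', and BBS1, a gene of the ciliary BBSome, had 1.83, 1.96, 2.83 and 2.00. RNF214, a RING finger gene, also had all its peaks under the 3' UTR label, with the highest fold (2.36) in the third and the lowest (1.53) in the last. The stress kinase gene MAPK14 had 1.84, 1.69, 2.19 and 1.87, with 3' UTR and stop codon labels in turn. MPZL1, a cell surface glycoprotein gene, had an exon peak of 2.56, 3' UTR peaks of 2.90 and 2.57 and a stop codon peak of 1.55 with the lowest p of the gene (log10 p -18.0). RSF1, a chromatin remodelling gene, had an exon peak of 2.37 and 3' UTR peaks of 2.40, 2.20 and 1.77. RRBP1, a ribosome-binding protein of the endoplasmic reticulum, had exon peaks of 3.00, 1.83 and 2.67 and a 3' UTR peak of 1.71. The RRBP1 peaks were the weakest by p, with adjusted p of 0.0741, 0.0398 and 0.0120 for the exon peaks. In each of the 8 genes the highest fold was thus found 5' of the last peak. Most peaks of such genes lie 5' of the last, so this count alone does not show an order by position.

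**Figure D3:**
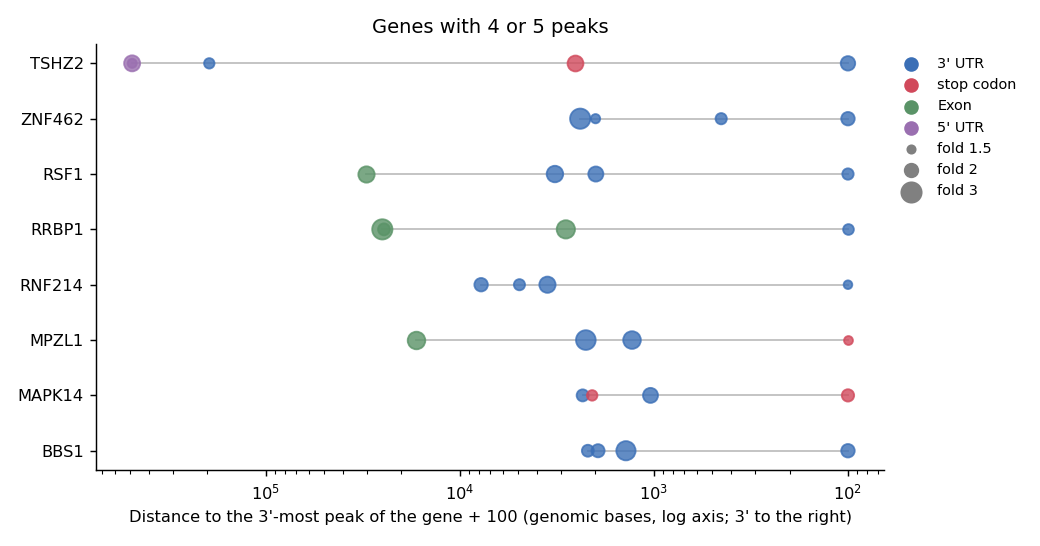
Peaks of the 8 genes with 4 or 5 peaks, placed by their distance in genomic bases to the 3'-most peak of the gene (x axis, 100 bases added, log axis, 3' to the right). Colour gives the annotation label and point size the fold, and in each of the 8 genes the largest point is not the 3'-most peak. Most peaks of such genes lie 5' of the 3'-most, whatever their fold.

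Over all genes with 2 peaks, the 5' peak had the higher fold in 223 of 409 (54.5%), the 3' peak in 176, and 10 were equal. The medians were 2.21 for the 5' and 2.00 for the 3' peak. Within the 466 genes the ratio of the highest to the lowest fold had a median of 1.30 and passed 2 in 32 genes, with LRRC2 at the top (3.22). The first peak of a gene was labelled 3' UTR in 322 of the 466 genes (69.1%) and stop codon in 18 (3.86%), whereas the last was labelled stop codon in 241 (51.7%). GNAQ, which couples receptors to phospholipase C, shows this order: 3' UTR peaks of 1.83 and 2.00 came first and a stop codon peak of 3.33 last. Since translation ends upstream of the 3' UTR, these peaks are called by their deposited label, with no claim on where the stop codon itself lies.

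Neighbouring peaks of a gene were often close, and close neighbours often carried the same p. The 532 gaps between neighbours had a median of 1020 bases and quartiles of 331 and 2794 bases. Of 99 neighbours at most 200 bases apart, 67 (67.7%, 58.0 to 76.1) had an identical deposited log10 p, against 17 of 104 (16.3%) at more than 200 and up to 500 bases and 14 of 329 (4.26%) beyond 500 bases. METTL14 had a pair of 3' UTR peaks 149 bases apart, both with a fold of 2.00 and a log10 p of -18.4, the 1 pair of the 532 that shared both values. The exon and start codon peaks of INHBA shared a log10 p of -10.1, and the first pairs of TSHZ2 (-14.9), BBS1 (-11.1), MAPK14 (-16.8) and ZNF462 (-13.8) did likewise, with unequal folds. With neighbours at most 200 bases apart counted as 1, the share of genes with a single peak was 89.7% in place of 87.9%, and 4 genes had 4 peaks.

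Peaks were spread over all 26 autosomes and the X chromosome. Of 16417 named protein-coding genes in the sheep gene table, 3592 had a peak, which is 21.9%, and of all 21300 protein-coding genes, unnamed ones included, 17.9% had a peak. Chromosome 5, where ARHGEF37 and MAN2A1 lie, had a higher share with 24.6% (21.9 to 27.5). Chromosome 16 had the highest share, 26.1% (21.1 to 31.7), on fewer genes. The shares were lower on chromosomes 14 (17.2%, 14.9 to 19.9), X (17.1%, 14.3 to 20.3), 25 (16.4%, 12.2 to 21.6) and 6 (18.1%, 14.8 to 21.9). None of the 13 named genes of the mitochondrial genome had a peak. The median fold ran from 1.985 to 2.225, and the interval of each of the 27 chromosomes included the 2.05 of the whole list. Of the genes with a peak on chromosome 13, which include CEBPB, PTGIS and TSHZ2, 35 of 146 were strong, 24.0% (17.8 to 31.5), against 14.2% of all genes. The intervals of the other 26 chromosomes included 14.2%. Genes without a peak include those not expressed in the ovary, whose number per chromosome was not measured.

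The leading gene of a chromosome was often among those already named. Of the others, chromosome 4 was led by the zinc finger gene ZNF783 (4.80), chromosome 7 by SPTLC2 (4.33), a subunit of the enzyme that starts sphingolipid synthesis, and chromosome 12 by LZIC (4.67). Chromosome 25 was led by MTR (4.60), the methionine synthase gene, which has 3 peaks, and chromosome 20 by the lysosomal sialidase gene NEU1 (4.40). The chaperone gene HSP90AA1 (4.33) led chromosome 18, BASP1 (4.25) chromosome 16, the signal transducer gene SMAD2 (3.50) chromosome 23 and the helicase gene WRN (3.14) chromosome 26. JCHAIN, the joining chain of immunoglobulins, led chromosome 6 with 4.25, but with a log10 p of -2.31 and an adjusted p of 0.0708. The share of stop codon labels ran from 28.9% on chromosome 8 to 48.5% on chromosome 9.

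**Figure D4:**
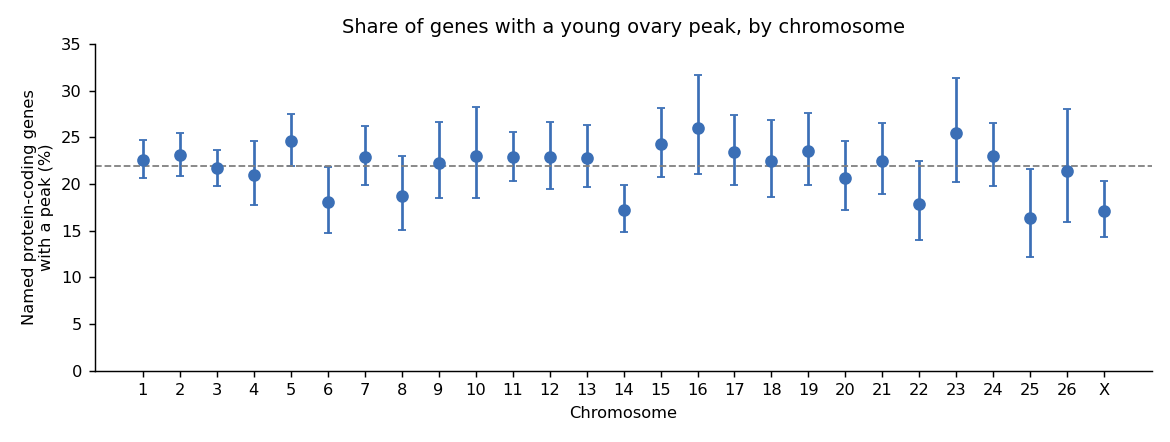
Share of named protein-coding genes with a young ovary peak on each chromosome (points), with Wilson 95% intervals (bars) and the share over all placed genes (dashed line, 21.9%). Chromosome 5 lies above the line, and chromosomes 6, 14, 25 and X lie below it, with intervals that leave out the line.

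Deposited pathway terms were available for 1634 genes (42.5%), and 134 terms had at least 20 genes. The interval of the share of strong genes lay above the 14.2% of all genes for 11 of the 134 terms and below it for 4, with no adjustment for the number of terms. The share was highest in the term for inflammatory mediator regulation of TRP channels, with 9 of 24 genes, 37.5% (21.2 to 57.3). Parathyroid hormone action followed with 7 of 22, 31.8% (16.4 to 52.7), then aldosterone synthesis with 6 of 20 and oocyte meiosis with 9 of 30, both 30%, and Th17 cell differentiation with 7 of 25, 28%. It was 14 of 51 genes, 27.5% (17.1 to 40.9), for Rap1 signalling, and 10 of 37, 27% (15.4 to 43.0), for cAMP signalling. It was 11 of 41, 26.8% (15.7 to 41.9), for cGMP-PKG signalling, 10 of 38, 26.3% (15 to 42.0), for Hippo signalling, and 12 of 48, 25% (14.9 to 38.8), for calcium signalling. The Spliceosome term, described further on, completes the 11. At a stricter fold of at least 4, reached by 2.73% of all genes, the shares were 7.89% for Hippo signalling, 4.17% for TRP channels and 4% for Th17 cell differentiation. They were 3.92% for Rap1, 2.70% for cAMP and 2.08% for calcium signalling. The share was 0 for parathyroid hormone action, aldosterone synthesis, cGMP-PKG signalling, oocyte meiosis and Spliceosome. Genes named for terms outside the 20 largest were chosen after their values were seen.

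The terms share genes, so these counts are not independent. The strong genes of the 11 terms numbered 59, and 18 of them were in several of these terms. The adenylate cyclase genes ADCY2 and ADCY7, both at 3.00, stood in 8 of the 11, the calmodulin-like gene CALML4 (3.33) in 7, and GNAQ (3.33) and the calcium release channel gene ITPR2 (3.11) in 6. The calcineurin gene PPP3CA (3.44) was in 4. Both cyclase peaks had a p weaker than the median peak, with log10 p of -6.36 (ADCY2) and -5.12 (ADCY7). Oocyte meiosis, a term close to the tissue, had 9 strong genes of 30 (30%, 16.7 to 47.9), and 5 of the 9 were among the shared genes just named. The others were CPEB3 (3.50), which controls translation of stored messages, ANAPC10 (3.43), a subunit of the anaphase-promoting complex, the growth factor gene IGF1 (3.12) and the phosphatase subunit gene PPP2R5B (3.03, log10 p -61.2). AURKA, a kinase of the meiotic spindle, had 1.56, and PGR, the progesterone receptor gene, 1.5.

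Hippo and Wnt signalling, which control organ size and cell fate, were led by receptor and polarity genes. FZD4 (6.37) headed both terms. In the Hippo term it was followed by the polarity gene PARD3 (4.93), the transcription factor gene TEAD1 (4.60), the ligand genes BMP2 (3.87) and WNT2B (3.60), SMAD2 (3.50) and PARD6A (3.43). The Hippo kinases LATS2 (2.86) and LATS1 (2.40) had peaks below a fold of 3. The 37 genes of the Wnt term had a median highest fold of 2.25 (2.14 to 2.56), against 2.11 for all genes, while 7 of them (18.9%, 9.48 to 34.2) were strong. The Spliceosome term had 12 strong genes of 50 (24.0%, 14.3 to 37.4), among them SNRPF (3.75), ALYREF (3.67), HNRNPU and HNRNPA1 (3.60 each) and RBMX (3.33). This share rested on peaks that join exons, which were the strongest peak in 22 of the 50 genes. With peaks inside 1 exon alone, 3 of 32 spliceosome genes (9.38%) were strong, against 14% of all genes so counted, whereas the Rap1 share was 30.2%.

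**Figure D5:**
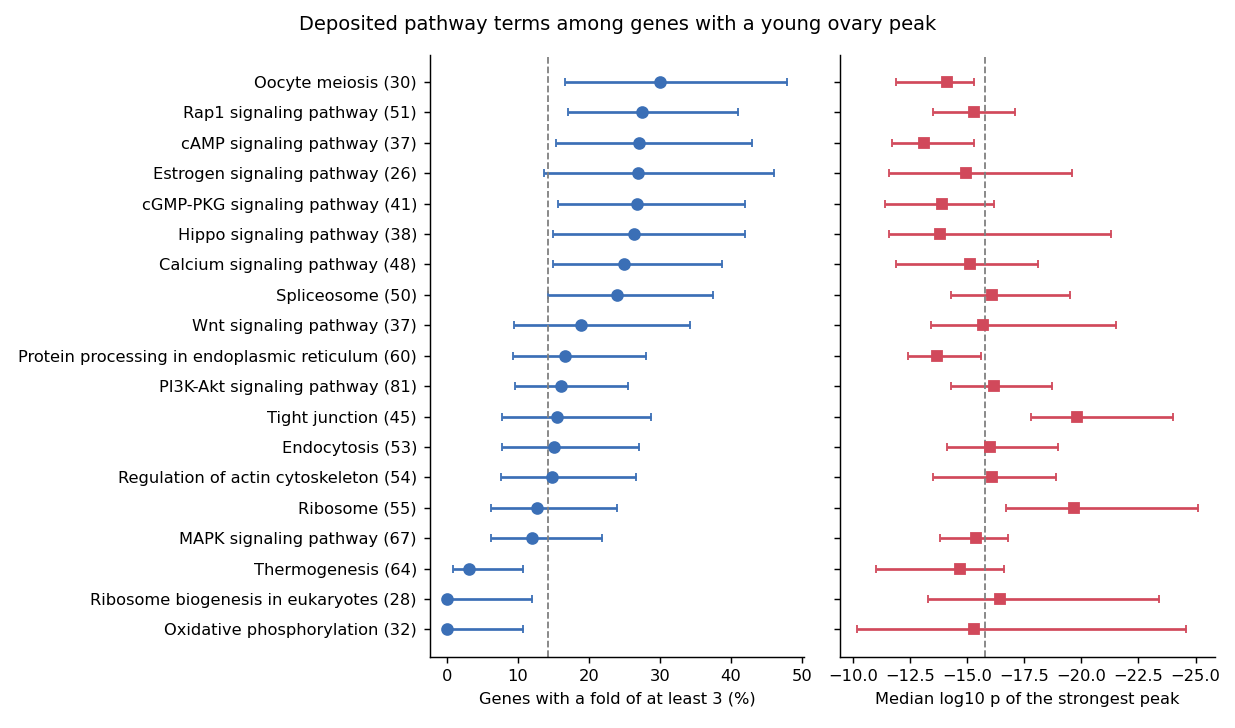
Share of genes with a fold of at least 3 (left) and median log10 p of the strongest peak (right) for pathway terms picked to show both ends and the middle of the range, with the number of genes in brackets, 95% intervals as bars and the value of all genes as dashed lines (14.2% and -15.8). On the left, oxidative phosphorylation and ribosome biogenesis lie at 0, and PI3K-Akt, MAPK and Wnt signalling at 16.0%, 11.9% and 18.9%. Rap1, cAMP, cGMP-PKG, estrogen, Hippo and calcium signalling lie at 25% to 27.5%, and oocyte meiosis at 30%. On the right, Ribosome and Tight junction lie at the lower p. Protein processing in endoplasmic reticulum (-13.7), cAMP signalling (-13.1) and oocyte meiosis (-14.1) lie at the higher p, with intervals that leave out -15.8. Of all 134 terms, the interval lies at higher p than the value of all genes for 10 and at lower p for 2.

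Oxidative phosphorylation, the term of the respiratory chain, was at the low end in fold. It had 32 genes with a peak, a median highest fold of 1.72 (1.61 to 1.90), against 2.11 for all genes, and no gene at a fold of 3 (0 of 32, with a Wilson upper bound of 10.7%). Its highest folds were 2.83 in LOC114110252, deposited with the symbol COX5B, 2.70 in the ATP synthase gene ATP5PO and 2.64 in the complex I gene NDUFS6. Weak folds could still be well supported, as in NDUFB10 (1.55, log10 p -69.2) and ATP5PD (1.90, -53.0). The label was stop codon for 22 of the 32 strongest peaks (68.8%), against 42.7% of all genes, and none of the genes had several peaks. In 18 of the 32 (56.3%) the strongest peak crossed an intron, against 17.1% of all genes, and 9 were LOC genes, whose identity is uncertain because they can be copies of the named gene. Among named complex I genes, 12 of 38 (31.6%) had a peak, with a median of 1.59 and none at a fold of 3. Thermogenesis, which shares many of these genes, had 2 strong genes of 64 (3.13%), and both were the cyclases ADCY2 and ADCY7. Ribosome biogenesis also had no strong gene (0 of 28, with an upper bound of 12.1%), but its median highest fold of 2.145 (1.91 to 2.25) was near that of all genes, and its highest folds were 2.95 in GNL3L and 2.78 in MPHOSPH10.

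Ribosomal protein genes divided by compartment. Of 80 genes named as cytosolic ribosomal proteins, 17 (21.3%, 13.7 to 31.4) had a peak, near the 21.9% of all named genes. Their median highest fold was 1.61, 0 of 17 were strong, 14 of 17 were labelled stop codon and the median log10 p was -27. RPS27L (2.48) led, followed by RPL27 (1.95) and RPL36A (1.88), the latter held by a LOC gene with that symbol. Of 75 mitochondrial ribosomal protein genes, 35 (46.7%, 35.8 to 57.8) had a peak, with a median highest fold of 2.00 and 6 strong members (14.2% of all genes were strong), led by MRPS21 (4.25), MRPL49 (3.62) and MRPL35 (3.28). Both families lost many members when peaks had to lie inside 1 exon, to 6.25% of the cytosolic and 26.7% of the mitochondrial genes. Of all 3846 genes with a peak, 3267 kept a peak under that rule. The 21.9% was counted without it and is not the share to set beside these values. The Ribosome term as deposited had 7 strong genes of 55 (12.7%), and 4 of the 7 were LOC genes with cytosolic ribosomal symbols, led by LOC114112986 (RPS15A, 4.82). With 23 LOC genes among its 55, the term holds many loci of uncertain identity. Whether reads of near-identical copies reached them was not tested.

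Genes of steroid synthesis and cholesterol supply had peaks in 13 of the 33 that the gene table names (39.4%, 24.7 to 56.3), against 21.9% of all named genes. The list, like those that follow, was written by function and not by fold, but with earlier results of these data known. The 21.9% also counts genes not expressed in the ovary, whose number was not measured. Among genes of cholesterol handling were ABCA1 (5.33), SOAT1, which esterifies cholesterol (3.00), and the exporter ABCG1 (2.22 and 2.00). STAR, the mitochondrial cholesterol carrier, had 2.75 with a log10 p of -3.60, weaker than the median peak, and its relative STARD3 had 1.6 with -35.0. The ferredoxin genes FDX2 (1.89) and FDX1 (1.80 and 1.63) and the ferredoxin reductase gene FDXR (1.59) had low folds. Among enzymes, CYP17A1, which makes androgen precursors, had 1.56 and SRD5A3, a reductase, 3.57. NR0B1, a repressor of steroidogenic genes, had 1.86. CYP11A1, HSD3B1 and CYP19A1 had no peak. In all, 3 of the 13 were strong (23.1%, against 14.2% of all genes with a peak), ABCA1, SRD5A3 and SOAT1.

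Gonadotropin, steroid receptor and prostaglandin signalling had peaks in 10 of 29 genes (34.5%, 19.9 to 52.7), an interval that includes the 21.9% of all named genes. The receptors carried low folds. FSHR, the receptor for follicle-stimulating hormone, had 1.6 in a stop codon peak on chromosome 3 (75557571 to 75557720), PGR had 1.5 and the prostaglandin F receptor gene PTGFR 1.83. Downstream of the receptors, the phosphodiesterase gene PDE4D had 3.75, ADCY7 3.00, ADCY3 1.65, the protein kinase A subunit gene PRKAR2B 1.67 and GNAS, matched through a LOC gene, 1.54. PGRMC2, a progesterone-binding membrane protein gene, had 2.82, and PTGIS 5.29. LHCGR, ESR1 and ESR2 had no peak.

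Inhibin, activin, BMP and TGF-beta signalling had peaks in 10 of 36 genes (27.8%, 15.8 to 44.0), a share near the 21.9% of all named genes. Their median highest fold was 2.67, against 2.11 for all genes with a peak. The median log10 p of those peaks was -11.15, weaker than the -15.8 of all genes. Among ligands and their antagonist, BMP2 had 3.87, INHBB 3.33, INHBA 2.67, TGFB2 2.67, TGFB3 1.59 and follistatin (FST) 1.59. ACVR2B, an activin receptor gene, had 2.77 and was the only receptor of the list with a peak, while BMPR1B, BMPR2 and AMHR2 had none. Of the signal transducers, SMAD2 had 3.50, SMAD9 2.00 and the common partner SMAD4 1.95. The oocyte ligand genes GDF9 and BMP15 had no peak. All but 1 of the strongest peaks of these 10 genes bore another label than stop codon, most often 3' UTR. Over all genes with a peak, the strongest peak was labelled stop codon in 42.7% and 3' UTR in 46.1%, and the difference was not tested.

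Marker lists of cell types had peaks in few genes each, and the interval of each list's share included the 21.9% of all named genes. Granulosa markers had peaks in 4 of 13 genes, INHBB (3.33), INHBA (2.67), NR5A2 (2.54) and FSHR (1.6). Theca and luteal markers had them in 4 of 11, the hedgehog effector GLI1 (3.29), STAR (2.75), PTGFR (1.83) and CYP17A1 (1.56). Oocyte markers had them in 4 of 20, the transcription factor FIGLA (2.55), the nuclear chaperone NPM2 (2.00), the zona pellucida gene ZP2 (1.90) and the synaptonemal complex gene SYCP3 (1.6). Of stromal fibroblast markers 6 of 14 had a peak, led by dermatopontin (DPT, 3.60), NR2F2 (2.67) and COL1A2 (2.40), and of endothelial markers 6 of 14, led by ERG (2.55), with 1.94 in FLT1. Smooth muscle markers had 4 of 12 (LMOD1 2.5, PDGFRB 2.00, DES 1.92, CSPG4 1.6). Macrophage markers had 5 of 11, led by CD86 (2.21), and surface epithelium 3 of 9, led by the uroplakin gene UPK3B (4.2, log10 p -4.22).

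Of 10 lymphocyte and plasma cell markers 1 had a peak, JCHAIN, whose adjusted p was above 0.05. None of 8 erythroid and mast cell markers and none of 10 neuron and Schwann cell markers had a peak, where 3 counts would be 37.5% and 30% of those lists. At these list sizes the counts cannot be told from the 21.9% of all named genes. FOXL2, AMH and INHA, which define granulosa cells, had no peak either. A peak list does not measure expression, so the make-up of the tissue was not tested.

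The m6A machinery itself carried peaks in 4 of 11 writer genes, 1 of 2 eraser genes and 4 of 14 reader genes, and the interval of each share included the 21.9% of all named genes. Among writers, the peak of METTL3, the catalytic subunit, was labelled 3' UTR (chromosome 7, 24025755 to 24025902, log10 p -17.9). The stop codon peaks of VIRMA and CBLL1, which hold the complex together, had log10 p of -24.0 and -33.9. WTAP, RBM15 and ZC3H13 had no peak. The eraser peak, labelled 3' UTR, was that of ALKBH5 (chromosome 11, 34171590 to 34171739, log10 p -13.9), and FTO had none. Among readers, YTHDF1 had the weakest fold of the machinery (1.62) with the lowest p (log10 p -46.7). HNRNPA2B1 had an exon peak of 1.71 and a 3' UTR peak of 3.25, RBMX 3.33 and FMR1, the fragile X protein gene, a peak across an intron at 2.33 (log10 p -10.2). YTHDF2, YTHDF3 and YTHDC1 had no peak. Of the 9 genes, 2 were strong, HNRNPA2B1 and RBMX, beside 14.2% of all genes with a peak.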

How the data were processed

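Ovarian RNA of young sheep was immunoprecipitated with an antibody against m6A and compared with its input. Per the labels' protocols, Trizol was used for extraction, a stranded kit for total RNA gave the libraries, and an Illumina NovaSeq read them. The submitters' processing notes name ChIPseeker and DESeq2 without a stated role. The aligner, the peak caller, the genome build and the depth were not given in the sources used here. Per the file headers, the authors gave each peak a fold enrichment (a linear ratio), a p-value and its adjusted form. The deposited log10 p was treated as a score, and the deposited width in bases was used for exon length. Nothing was normalized again. Input reads and the aged list were not used here.

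Genes were matched by identifier to a sheep gene table of assembly ARS-UI_Ramb_v3.0 (99.4% of genes), which gave names, chromosome numbers and gene counts but no coordinates. A gene's strongest peak was the one with the highest fold. Strong meant a fold of at least 3. Samples were grouped by their age and antibody labels. Members, 17 gene lists and 17 symbol families were chosen with earlier results of these data known, and the olfactory receptor family matched no gene. Named genes were the 20 highest folds, the 10 lowest p, genes with at least 4 peaks, the 5 leaders of each label, the leader of each chromosome, the 3 leaders of the 20 largest pathway terms, up to 6 genes of each list by fold and all genes of the m6A machinery that had a peak. Other names were chosen after their values were seen. A few genes that the rule would name are not reported here. Alternatives were a fold of at least 2, an adjusted p of at most 0.01, peaks inside 1 exon, no LOC genes, 1 peak per gene, a strong fold of 4, and all peaks in place of the strongest. The code was tested on simulated data. Tables were handled in pandas 2.3.3 under Python 3.11.15, intervals came from scipy 1.17.1 with numpy 2.4.6, and plots from matplotlib 3.10.9.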

Additional observations from a re-analysis of the deposited data

How the results depend on the processing

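Leaving out the 25 peaks with an adjusted p above 0.01, or the LOC genes, moved no compared value beyond its interval. With a fold of at least 2 (2553 peaks), shares were 51.3% for 3' UTR, 36.1% for stop codon (39.2% plus, 32.3% minus strand) and 10.7% for exon. Median folds were 2.44 (3' UTR) and 2.40 (stop codon) and median log10 p -13.2 and -19.0. Genes with 1 peak made up 91.3%, shares on chromosomes 5, 14 and X were 15%, 10.1% and 12.1%, strong genes 23.4%, and 41 of the 73 list members kept a peak. With peaks inside 1 exon the values were 51.8% (3' UTR), 43.2% (stop codon, 41.6% on the minus strand), 3.41% (exon), 90.0% (1 peak), 21.3% (chromosome 5) and 14.1% (X). With 1 peak per gene they were 42.7% (stop codon), a median fold of 2.18 (3' UTR) and a log10 p of -20.5 (stop codon). Strong genes were 2.73% at a fold of 4, beside 7.89% for Hippo, 3.92% for Rap1, 2.70% for cAMP, 2.08% for calcium and 0 for cGMP-PKG, oocyte meiosis and Spliceosome, and 12.8% of all peaks were strong. Joining peaks at most 200 bases apart, chosen after seeing the data, gave 89.7% of genes with 1 peak. The stricter fold and the exon rule remove peaks by construction, and the cause was otherwise not tested. No paired analysis was possible because there was 1 list, made from 1 immunoprecipitate and 1 input, and no value came from a test. Depth and the reads behind each peak were not available, so precision per peak is unknown.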

Other observations

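Gene families named by their symbols, and deposited Gene Ontology terms, add further groups. Of 254 ZNF zinc finger genes, most of which encode DNA-binding repressors, 67 (26.4%, 21.3 to 32.1) had a peak, against 21.9% of all named genes. Their median highest fold was 2.25, against 2.11 for all genes with a peak. Of the 67, 12 were strong (17.9%, against 14.2% of all genes with a peak), led by ZNF783 (4.80), ZNF691 (4.67) and ZNF568 (4.00). Of 40 ZBTB genes 13 (32.5%) had a peak, led by ZBTB47 (4.25) and ZBTB5 (3.00). HOX genes, which set positional identity, had 7 of 38, with a median highest fold of 2.80, led by HOXC6 (3.75), HOXC8 (3.00) and HOXD4 (2.85). Forkhead genes had 5 of 44, led by FOXA2 (3.33), and SOX genes 1 of 19, SOX4 (1.92). Solute carriers, the membrane transporters, had peaks in 43 of 355 genes (12.1%, 9.12 to 15.9), led by SLC38A10 (4.67), SLC46A1 and SLC6A20 (3.33 each).

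Other families had these values, beside 21.9% of all named genes with a peak. Collagens had peaks in 13 of 43 genes, led by COL8A1 (4.67) and COL9A3 (3.05). Proteasome subunits had 13 of 40, led by PSMD9 (3.00), with a log10 p of -27.0 and a highest fold of 1.82 in the median. Kinesins had 10 of 37 (KIF3C 3.20), F-box genes 9 of 60 (FBXO32 2.42), tripartite motif genes 8 of 51 (TRIM25 3.67), KMT and KDM genes 5 of 24 (KDM4B 3.50), and Kruppel-like factors 4 of 17 (KLF16 3.20). Of 154 Gene Ontology terms with at least 40 genes, the interval of the strong share lay above the 14.2% of all genes for 5. It lay below that share for 0, with no adjustment for the number of terms. Transcription cis-regulatory region binding had 14 strong genes of 44 (31.8%, 20 to 46.6), led by CHD3 (4.29) and BASP1 (4.25). Microtubule binding had 16 of 60 (26.7%, 17.1 to 39.0), led by HDGFL3 (5.00), and inflammatory response 4 of 61 (6.56%, 2.58 to 15.7, which includes 14.2%), led by PLGRKT (4.67). The genes named for these terms were chosen after their values were seen.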
